A study of Mus musculus with 32 samples.

Results

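The RNA levels of YAP, TAZ, the TEAD factors and their target genes were examined in WT and Eed -/- mouse embryonic stem cells (mESCs). The 10 genes are the transcriptional coactivators Yap1 and Wwtr1 (the gene of TAZ), the DNA-binding factors Tead1, Tead2, Tead3 and Tead4, and the target genes Ctgf, Cyr61, Ankrd1 and Amotl2. They were chosen by name, and all 10 were found among the 24028 gene symbols that each RNA-seq table lists. The study asked how Polycomb keeps broad DNA methylation valleys (DMVs) hypomethylated, and EED is the subunit of the Polycomb complex PRC2 that binds methylated H3K27. RNA-seq of strand-specific, rRNA-depleted total RNA was made from 1 WT and 1 Eed -/- library. Both RNA-seq samples carry the strain label TT2 and Eed -/- samples of the other assays the label l7Rn5-3354SB, which is the name of an Eed allele. Which mutation the Eed -/- cells of the RNA-seq carry is therefore not clear from the labels. Both genotypes were cultured in medium with serum and LIF on gelatinized plates.

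YAP and TAZ are the effectors of the Hippo pathway. The kinases MST1 and MST2 (genes Stk4 and Stk3) activate LATS1 and LATS2, which phosphorylate YAP and TAZ and hold them in the cytoplasm. Unphosphorylated YAP and TAZ enter the nucleus and bind TEAD factors, which recognize the core element CATTCC at their target genes. In the preimplantation embryo, TEAD4 with YAP turns on trophectoderm genes in outer cells, and Hippo signalling holds this in check in the inner cells from which mESCs are derived. Serum and actin tension both activate YAP and TAZ. An RNA level shows neither the phosphorylation nor the location of these proteins.

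To show the regulatory sequence that TEAD factors read, the promoter windows of the genes were taken from RefSeq (GRCm38.p6), from 250 bases before to 50 bases after each annotated start. Of the 10 genes, 7 were matched, Cyr61 under its RefSeq symbol Ccn1. Windows of Tead1, Tead4 and Ctgf were not used here. The letters searched were CATTCC and, for the other strand, GGAATG. They were found in at least 1 window of 6 of the 7 genes, all but Tead2, and in 8 of their 10 windows, of which those of Wwtr1 overlap each other, as do those of Tead3. By comparison, 14.7% of 32851 RefSeq promoter windows held either form, and 16.6% of 27025 genes had it in at least 1 window. These coordinates are of another build than the gene positions given with the levels. Sequences are shown for the target genes and the coactivators, 5′ to 3′ on the strand of the gene, with the element in capitals. For Amotl2, 30 bases around the element are shown, and for the others the 250 bases before the annotated start.
Cyr61 (chr3:145649986-145650235, minus strand): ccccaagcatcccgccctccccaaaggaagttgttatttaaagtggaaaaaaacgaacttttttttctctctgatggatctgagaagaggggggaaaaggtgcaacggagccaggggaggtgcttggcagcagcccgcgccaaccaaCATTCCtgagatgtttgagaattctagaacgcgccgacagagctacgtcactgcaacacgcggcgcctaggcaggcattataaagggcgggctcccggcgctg
Ankrd1 (chr19:36119845-36120094, minus strand): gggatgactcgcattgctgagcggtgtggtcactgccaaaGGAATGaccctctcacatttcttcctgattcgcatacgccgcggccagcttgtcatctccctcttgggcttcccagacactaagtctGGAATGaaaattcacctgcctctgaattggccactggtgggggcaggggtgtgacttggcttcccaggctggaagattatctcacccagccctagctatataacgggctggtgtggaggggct
Amotl2 (chr9:102717727-102717756, plus strand): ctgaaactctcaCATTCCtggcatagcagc
Wwtr1 (chr3:57575911-57576160, minus strand): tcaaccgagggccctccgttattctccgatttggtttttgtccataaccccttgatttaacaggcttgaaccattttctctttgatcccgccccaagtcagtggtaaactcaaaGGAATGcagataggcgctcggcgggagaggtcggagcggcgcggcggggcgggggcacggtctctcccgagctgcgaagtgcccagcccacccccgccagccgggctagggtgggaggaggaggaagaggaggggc
Yap1 (chr9:8004597-8004846, minus strand): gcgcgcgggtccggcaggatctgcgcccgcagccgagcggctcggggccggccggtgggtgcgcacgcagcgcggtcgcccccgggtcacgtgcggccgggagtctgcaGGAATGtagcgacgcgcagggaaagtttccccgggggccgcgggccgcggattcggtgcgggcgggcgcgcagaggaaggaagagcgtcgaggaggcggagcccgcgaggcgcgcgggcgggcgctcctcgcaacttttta

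Counted from the annotated start, with the first base before it as -1, the element began at -103 in Cyr61, -65 in Amotl2, -136 in the upstream window of Wwtr1 and -141 in Yap1. Ankrd1 held it at -210 and -123. The RefSeq start of Amotl2 lay 1132 bases from the gene start given below with the levels. The starts for Cyr61, Ankrd1, Yap1 and the upstream window of Wwtr1 matched. A match of these letters is a description of the sequence and does not show that a TEAD factor was bound. The windows of the 7 genes had a GC content of 54.7 to 75.3%, all above the median of 52.7% over RefSeq windows. That of Ankrd1 was the lowest, with 7 CpGs, and that of Yap1 had 49.

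The deposited values are FPKM, fragments per kilobase of transcript, scaled to the mapped reads of the library. From the steps of low values the libraries were estimated to hold about 7230000 (WT) and 6450000 (Eed -/-) mapped fragments, and 95% intervals from these numbers cover counting error only. With 1 library per genotype there is no replicate check, the spread between cultures is unknown and no p-value was computed. Differences were computed on quantile-normalized values as log2(FPKM + 1), Eed -/- minus WT, a scale that understates the change of low genes, and the threshold was 2-fold on this scale. The filter on low values, a mean of 0.1 or more after normalization, left 14835 genes. Of these, 3.8% were past 2-fold higher with Eed -/- and 3.98% past 2-fold lower. Of the same genes, 50.9% had a difference above 0 and 49.0% below 0. The paper checked the loss of Eed through H3K27me3, by western blot and by ChIP-seq, the latter on a sample labelled l7Rn5-3354SB. In the RNA-seq, the Eed transcript itself was not lower, with an FPKM of 63.0 in WT against 70.9 in the library labelled Eed -/-. RNA thus does not check the genotype label. The direction of each difference below is therefore that of the library labelled Eed -/-. Pluripotency markers were abundant in both libraries: the FPKM of all 10 was 25.5 or more in WT, and 37.8 or more in the library labelled Eed -/-. Of these 10, 7 had a normalized difference above 0 (5 with the FPKM as deposited), with a median of 0.24 (0.04 as deposited). Zfp42 (131 in WT, 272 in the other library) was past 2-fold higher, and Klf4 and Nanog differed by 0.99 and 0.86. Utf1 (167 in WT, 106 in the other library), Sox2 and Lin28a were below 0, at -0.38, -0.08 and -0.04. The part of this in the results below was not tested.

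Of the 10 genes, 9 passed the filter on low values, and Ankrd1 did not. Wwtr1 was past 2-fold higher in the library labelled Eed -/-, 0 genes were past 2-fold lower, and 8 were past neither threshold, against the 3.8 and 3.98% over all genes given above. The median difference of the 9 genes was 0.14, beside 0.01 over all genes tested. In bulk RNA, fewer cells that express a gene and less RNA per cell cannot be told apart. In WT, Tead2 and Yap1 had the highest FPKM, and Amotl2, Cyr61, Ctgf, Tead1, Wwtr1, Tead4, Tead3 and Ankrd1 followed in this order. The counting intervals of Tead2 and Yap1 overlapped in WT, as did those of Amotl2, Cyr61 and Ctgf, and those of Wwtr1 and Tead4. In the library labelled Eed -/- the order was Tead2, Yap1, Amotl2, Tead1, Wwtr1, Ctgf, Cyr61, Tead4, Tead3 and Ankrd1. There the intervals of Tead1 and Wwtr1, of Ctgf and Cyr61, of Cyr61 and Tead4, and of Tead3 and Ankrd1 overlapped, while that of Tead2 lay above that of Yap1. The plot of levels shows each gene in both libraries.

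**Figure D1:**
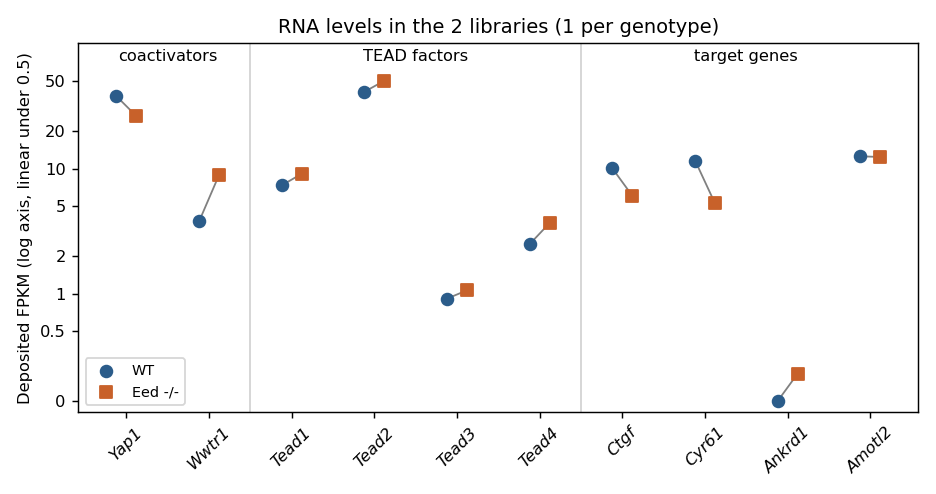
Deposited FPKM of the 10 genes (log axis, linear under 0.5) in the WT library (circles) and the library labelled Eed -/- (squares), with a line joining the values of each gene. Yap1, Ctgf and Cyr61 were lower and Wwtr1 higher in the library labelled Eed -/-, and Ankrd1 was near 0 in both.

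The coactivators differed in opposite directions. Yap1 (chromosome 9 of mm9, 7931999 to 8004596, minus strand) had an FPKM of 37.8 in WT against 26.3 in the library labelled Eed -/-. It was the higher of the pair in both libraries, above 88.0% of the tested genes in WT and 85.0% in the other library. Its deposited value was 1.44-fold lower in the library labelled Eed -/- (95% interval 1.32 to 1.57, from about 1395 and 865 fragments), and its normalized difference was -0.32. The difference in deposited FPKM was larger than counting error, and on no scaling did it reach 2-fold.

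Wwtr1 (chromosome 3, 57259571 to 57379832, minus strand) had an FPKM of 3.79 in WT against 8.85 in the library labelled Eed -/-. These values stand for about 124 and 258 fragments. The ratio of the deposited values was 2.34 (interval 1.87 to 2.91), with a normalized difference of 1.15. Of the genes tested, 2.62% had a difference at least as high, and Wwtr1 ranked 389 among the rises. It stayed above the 2-fold threshold with the FPKM as deposited (1.04) and with median-ratio scaling (1.18), and it was below a 3-fold threshold.

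The makeup of the coactivator RNA therefore differed between the libraries. Yap1 stood 9.98-fold above Wwtr1 in WT and 2.97-fold above it in the library labelled Eed -/-. The share of Wwtr1 in their summed FPKM was 9.10% in WT and 25.2% in the other library. Their sum depended on the scaling, at 41.6 and 35.1 as deposited and 39.1 and 37.6 after quantile normalization. YAP and TAZ share TEAD partners and many target genes. Proteins were not measured in these libraries.

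**Figure D2:**
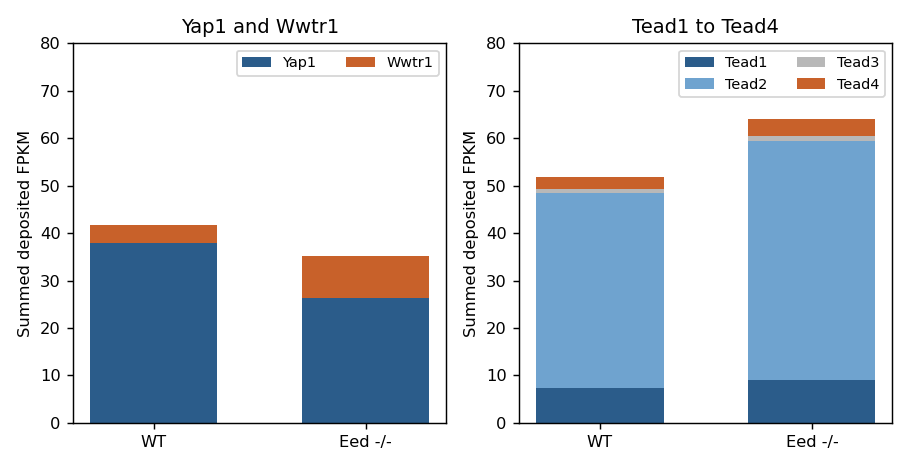
Summed deposited FPKM of Yap1 and Wwtr1 (left) and of the 4 Tead genes (right) in each library, with the part of each gene stacked. The Wwtr1 part was larger in the library labelled Eed -/-, while Tead2 made up 79.2 and 78.4% of the Tead sum in the 2 libraries.

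Of the TEAD factors, Tead2 held most of the RNA. Tead2, a TEAD factor of the early embryo (chromosome 7, 52471123 to 52489005, plus strand), had an FPKM of 41.1 in WT against 50.3 in the library labelled Eed -/-, a ratio of 1.22 (interval 1.12 to 1.34). Tead1, broadly expressed and required for heart development (chromosome 7, 119822832 to 120050319, plus strand), had values of 7.34 and 9.07, a ratio of 1.24 (interval 1.10 to 1.40). Both were thus higher in the library labelled Eed -/- by a similar ratio.

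Tead4, the factor needed for the trophectoderm (chromosome 6, 128174306 to 128250841, minus strand), had an FPKM of 2.49 in WT against 3.67 in the library labelled Eed -/-, a ratio of 1.47 (interval 1.02 to 2.17). Tead3 (chromosome 17, 28468616 to 28487750, minus strand) had values of 0.914 and 1.06, from about 22 fragments in each library. Its interval, 0.59 to 2.12, held 1, so a difference of Tead3 was not detectable at this depth. The lower ends for Tead1, Tead2 and Tead4 depend on the transcript length behind the fragment numbers. With the median in place of the longest annotated transcript, their intervals held 1, at 0.85 to 1.82, 0.99 to 1.498 and 0.86 to 2.45.

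All 4 Tead genes had a normalized difference above 0, from 0.14 for Tead3 to 0.50 for Tead4, and 0 of 4 passed 2-fold. Of all genes tested, 50.9% were above 0. The 4 Tead genes kept this sign with the FPKM as deposited and with median-ratio scaling. Their summed deposited FPKM was 51.8 in WT against 64.1 in the library labelled Eed -/- (48.8 and 68.8 after quantile normalization). The share of each gene in the sum moved by less than 1 percentage point: Tead2 held 79.2 and 78.4%, Tead1 14.2% in each, Tead4 4.81 and 5.73% and Tead3 1.76 and 1.66%. The ratio between the libraries, unlike that of the coactivators, was thus near alike for the members of the family that carry most of its RNA.

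Ctgf and Cyr61 encode secreted matricellular proteins of the CCN family and are among the genes most used to read YAP and TAZ activity. Cyr61 (chromosome 3, 145309935 to 145312949, minus strand) had an FPKM of 11.6 in WT against 5.28 in the library labelled Eed -/-, about 155 and 63 fragments of its single annotated transcript. The deposited value was 2.19-fold lower (interval 1.63 to 2.99). The normalized difference was -0.86, short of 2-fold, and with the FPKM as deposited it was -1.003, just past it. Of the genes tested, 5.74% had a difference at least as low.

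Ctgf (chromosome 10, 24315248 to 24318489, plus strand) had an FPKM of 10.0 in WT against 6.07 in the library labelled Eed -/-, about 161 and 87 fragments. The deposited value was 1.65-fold lower (interval 1.27 to 2.17) and the normalized difference was -0.50. Cyr61 and Ctgf were thus both lower than in WT by more than counting error, and neither passed 2-fold after normalization.

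Of the other target genes, Amotl2 was level and Ankrd1 was too low to compare. Amotl2, an angiomotin-like protein that binds YAP at cell junctions (chromosome 9, 102619002 to 102635748, plus strand), had an FPKM of 12.5 in WT against 12.4 in the library labelled Eed -/-. Its ratio was 0.99 with an interval of 0.85 to 1.14, which leaves out the ratios of Cyr61 (0.46) and Ctgf (0.61). With the median in place of the longest annotated transcript, the intervals of Amotl2 (0.67 to 1.43) and Ctgf (0.42 to 0.88) overlapped. The sign of the normalized difference of Amotl2, 0.13, depends on the scaling, as it was -0.02 with the FPKM as deposited. Ankrd1, a nuclear ankyrin-repeat protein of heart and skeletal muscle (chromosome 19, 36186455 to 36194334, minus strand), was listed at 0 in WT against 0.195 in the library labelled Eed -/-. The second value stands for about 2 fragments, so both libraries were at or under a floor of 3 fragments and no ratio is given. An FPKM of 0 can be a failed estimate.

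**Figure D3:**
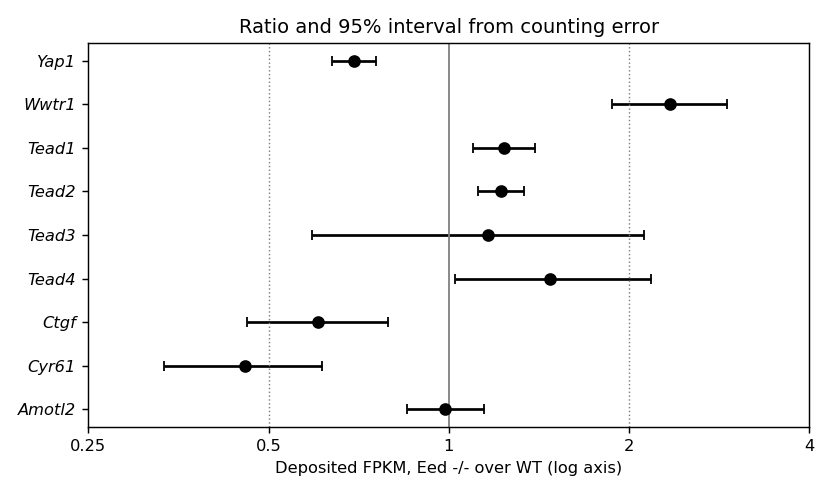
Ratio of deposited FPKM, Eed -/- over WT (log axis), of the 9 genes with more than 3 fragments in WT, with 95% intervals from counting error and dotted lines at 0.5 and 2. The intervals of Yap1, Ctgf and Cyr61 lie below 1, those of Wwtr1, Tead1, Tead2 and Tead4 above 1, and those of Tead3 and Amotl2 hold 1.

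The chromosomes of the 10 genes had median differences between -0.01 (chromosomes 7 and 19) and 0.06 (chromosome 3). By contrast, the median was -0.29 over chromosome 1, -0.38 over chromosome 8 and 0.46 over chromosome X, none of which holds any of the 10 genes. Wwtr1 and Cyr61 lie on the same chromosome and differed in opposite directions. The part of chromosome-wide or regional differences in the values of these or other genes was not tested.

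**Figure D4:**
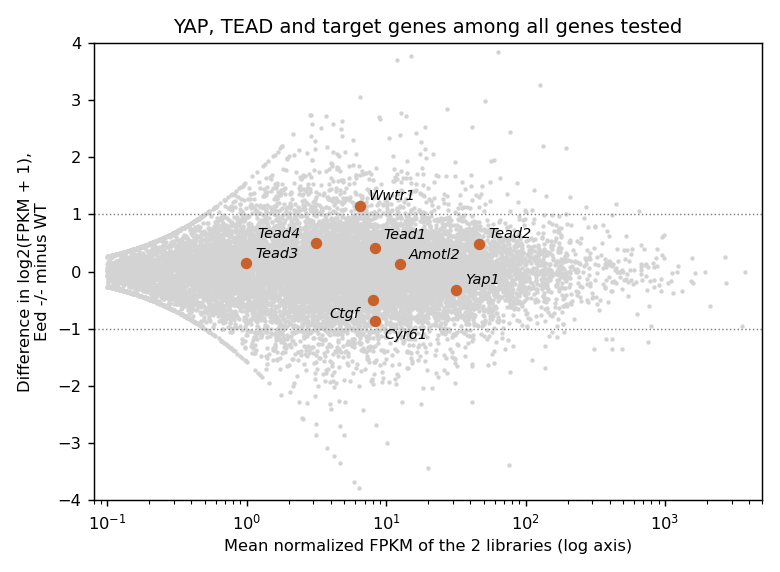
Difference in log2(FPKM + 1), Eed -/- minus WT, against the mean normalized FPKM of the 2 libraries (log axis) for the genes tested (grey; 69 genes lie outside the axes), with the 9 genes that passed the filter in orange and dotted lines at 2-fold. Wwtr1 lies above the upper line at 1.15 and Cyr61 just above the lower line at -0.86.

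Genes of the pathway upstream and downstream of YAP and TAZ were read from lists of 48 genes in all, of which 43 passed the filter. Of these, 4 passed 2-fold higher and 3 passed 2-fold lower, against the 3.8 and 3.98% of all genes. Their median difference was 0.01, as over all genes.

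In the Hippo kinase cascade, all 15 genes passed the filter, 2 were past 2-fold higher and 0 past 2-fold lower, with a median of 0.09 (-0.09 with the FPKM as deposited). Lats2, the kinase that phosphorylates YAP and is itself a YAP target gene, had an FPKM of 0.945 in WT against 3.11 in the library labelled Eed -/-, a difference of 1.14. Taok1, a kinase that activates MST1 and MST2, had values of 12.9 and 24.3 and a difference of 1.03, which with the FPKM as deposited fell short of 2-fold. Lats1, the paralog of Lats2, had values of 2.44 and 3.37. The 2 genes with the highest level were Map4k4, a kinase acting beside MST1 and MST2 (88.2 and 41.6, on chromosome 1), and Nf2, the tumour suppressor Merlin (73.0 and 63.3). The level of Map4k4 differed by -0.85, the lowest value of the list, or past 2-fold with the FPKM as deposited.

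Of proteins that bind YAP, TAZ or TEAD, all 11 genes passed the filter, 1 was past 2-fold higher and 1 past 2-fold lower, with a median of -0.26. Amot, the X-linked angiomotin that holds YAP at junctions, had an FPKM of 1.43 in WT against 4.16 in the library labelled Eed -/-, a difference of 1.15. The differences of its paralogs were -0.45 for Amotl1 and 0.13 for Amotl2. Ajuba, a LIM protein that inhibits LATS, had values of 79.0 and 29.5, a difference of -1.18.

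Of 18 other YAP and TAZ target genes, 15 passed the filter and Foxf2, Ccdc80 and Rbms3 were listed at 0 in both libraries. At least 2-fold higher were 2 of them, Lats2 and Nt5e, an ecto-nucleotidase, with values of 0.407 and 2.05. At least 2-fold lower were 2, Gadd45a, a stress-induced growth arrest gene, with values of 43.1 and 10.8, and Myof, a membrane repair protein, with values of 3.19 and 0.605. The median was -0.06. Igfbp3, which binds insulin-like growth factors, had values of 9.11 and 5.62 and a difference of -0.47. Of the 15 differences, 7 were above 0 and 8 below, so the list had no common direction.

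**Figure D5:**
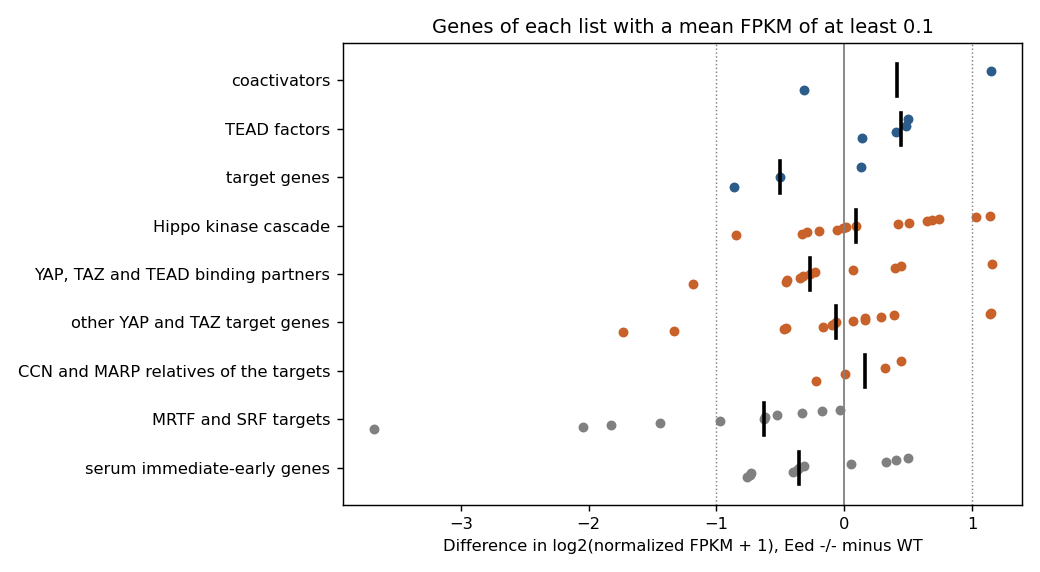
Difference in log2(normalized FPKM + 1), Eed -/- minus WT, of each gene that passed the filter (points) and the median of each list (bars), with dotted lines at 2-fold. The list of MRTF and SRF targets, which also holds Srf, Mkl1 and Mkl2 themselves, lies below 0 with a median of -0.63. The Hippo kinase cascade and the other YAP and TAZ target genes lie on both sides.

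Ctgf, Cyr61 and Ankrd1 are also induced by serum and by actin tension through SRF and its coactivators MRTF-A and MRTF-B (Mkl1 and Mkl2), so genes of that route were read beside them. Of 12 genes of this kind, 11 passed the filter, 0 were past 2-fold higher and 4 past 2-fold lower, against 3.98% of all genes. The median was -0.63, and 11 of 11 differences were below 0 (10 of 11 with median-ratio scaling), against 49.0% of all genes. These 11 include the regulators Srf, Mkl1 and Mkl2 themselves, at -0.62, -0.17 and -0.03. Tpm1, an actin-binding tropomyosin, had an FPKM of 91.4 in WT against 28.5 in the library labelled Eed -/-. Cnn2, a calponin, had values of 37.3 and 7.25, and Tagln, also called transgelin, had values of 4.32 and 0.440. Myl9, a myosin light chain, had an FPKM of 12.5 in WT, about 86 fragments, and was listed at 0 in the other library. Such a 0 can be a failed estimate, and Myl9 is among the 4 genes counted as lower. Flna, which crosslinks actin and lies on chromosome X, had values of 49.3 and 29.3. With a pseudocount of 0.1, the count of genes past 2-fold lower was 6 and the median -1.22, where 12% of all genes were past 2-fold lower.

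Of 12 serum immediate-early genes, 11 passed the filter, and 0 were past 2-fold in either direction, with a median of -0.36. With a pseudocount of 0.1, 2 of the 11 were past 2-fold lower, near the 12% of all genes. Ier2 had values of 56.9 and 29.1 and Junb 27.2 and 14.2, and both lie on chromosome 8, the chromosome with a median of -0.38. The lowest difference of the list, -0.76, was that of Ier3 (9.97 and 4.93), on chromosome 17, which had a median of 0.04. The part of either list in the values of Ctgf and Cyr61 was not tested.

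Markers of other cell types were read in the same way. Of 10 feeder fibroblast markers, 3 passed the filter, the summed FPKM was 2.15 in WT against 7.56 in the library labelled Eed -/-, and Dcn and Fap were listed at 0 in both. Most of the second sum was Thy1 (6.97), while Col1a1 had values of 0.460 and 0.137. Of 10 trophoblast markers, 9 passed the filter, 1 was past 2-fold higher (Eomes, 0.478 and 1.93) and 2 past 2-fold lower. Over all genes, the shares were 3.8 and 3.98%. The summed level was 67.6 in WT and 27.01 in the other library. Of the 9 trophoblast differences, 4 were above 0 and 5 below. Tfap2c, which held most of the WT sum, had values of 39.8 and 9.21, and Krt18 of 12.1 and 4.69. Cdx2, which TEAD4 activates in the trophectoderm, was at 0.562 and 0.0788, from about 8 fragments and 1. Gata3 (0.365 and 0.664) and Hand1 (0 and 0.541) were higher, from about 13 fragments or fewer. Elf5 was listed at 0 in both. Of 10 primitive endoderm markers, 9 passed the filter, and 2, Lama1 (8.25 and 33.5) and Col4a1 (5.62 and 19.1), were past 2-fold higher. This was so for 3.8% of all genes. With a pseudocount of 0.1, 7 of the 9 were past 2-fold higher, against 11.4% of all genes. The summed level of the 10 primitive endoderm markers was 87.4 in WT and 125 in the other library. Sparc held most of both sums, at 71.9 and 67.9, and was not higher as deposited. Gata4 (0.431 and 1.35), Sox17 (0 and 0.449) and Sox7 (0.314 and 1.15) were low, with about 28 fragments or fewer. Whether such cells contribute to the values of Wwtr1, Ctgf or Cyr61 was not tested.

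Of the 10 genes, the study's list of DMV genes in mESCs names Cyr61 and Amotl2. The share of all genes that this list names was not computed here. Over the study's lists for 21 methylomes, Cyr61 was named in 12, Amotl2 in 7, and Wwtr1 and Tead4 in 1 each. Cyr61 was lower in the library labelled Eed -/- and Amotl2 was near level, with ratios of 0.46 and 0.99. Methylation and histone marks at these genes were not analysed here.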

How the data were processed

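RNA-seq of WT and Eed -/- mESCs was used, with 1 library each, out of 32 samples in the series. Reads were mapped to mm9 and quantified by the authors with Cufflinks, giving deposited FPKM for each gene symbol. The submitters' processing notes name TopHat2 2.0.11 and Cufflinks 2.2.1, the paper another TopHat version. The annotation is not given in the sources used here. The genes and lists were chosen with earlier results of these data known.

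For 268 symbols with more than 1 entry the FPKM were added up. Libraries were quantile-normalized, and differences taken as log2(FPKM + 1) where the mean after normalization was 0.1 or more. Besides the 10 genes and Eed, the text names of each list up to 5 genes past 2-fold and the 2 with the highest level. A gene that this rule names is not reported here. Lats1, Amotl1, Klf4, Nanog, Col1a1, Cdx2, markers at 0 and other genes outside this rule were chosen after their values were seen. No genes were named for a pattern like that of the 10, since 2 libraries give only 1 difference.

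Gene positions and transcript lengths are those of GENCODE vM1 (NCBIM37, the same assembly as mm9), in which 20822 of 24028 symbols were matched. Depth was taken from low values of 5103 genes with 1 transcript that is 1000 bp or longer, each length reduced by 180 bp. Of low values in WT and Eed -/-, 78.4 and 79.9% lay within 0.1 of a whole fragment, against 20% by chance. Fragment numbers of genes with several transcripts use the longest and are approximate. Ratio intervals are exact conditional binomial (Clopper-Pearson) and level intervals exact Poisson, both at 95% and for counting error only. Near-identical copies (80% cover, 95% identity) were looked for with minimap2 2.31, and 0 were found for the 10 genes. Scripts were tested on simulated data and ran in Python 3.11.15 with scipy 1.17.1, numpy 2.4.6, matplotlib 3.10.9 and pandas 2.3.3. Alternatives were other scalings, pseudocounts, filters, thresholds and transcript lengths.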

Additional observations from a re-analysis of the deposited data

How the results depend on the processing

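No paired analysis was possible because each genotype has 1 RNA-seq library. Wwtr1 was the gene past 2-fold higher in every alternative but the 3-fold threshold, where 0 were higher, and 0 genes were lower except with the FPKM as deposited, where 1 (Cyr61) was. That scaling moved the median of all genes to -0.09. Over all genes, higher and lower counts were 1694 and 1778 with a pseudocount of 0.1, 1914 and 1989 with 0.01, and 152 and 137 with a 3-fold threshold. Of the pathway genes, 7, 8 and 0 were higher under these settings in the same order, and 1 was lower with the 3-fold threshold. Of the MRTF, SRF and immediate-early genes, 8 were lower with either pseudocount. The pseudocount acts on low values and the threshold by its own construction. In the FPKM as deposited, Yap1 differed by -0.51 and Tead2 by 0.29. The other 59 recomputed values that answer a comparison moved by less than 1.5 times for counts or less than counting error. Depth limits Tead3 and Ankrd1, and the spread between cultures limits every difference.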

Other observations

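The closest relatives of the target genes were low in both libraries. Of 6 CCN and muscle ankyrin-repeat genes, 4 passed the filter and 0 were past 2-fold. Nov, a CCN family gene also called Ccn3, was listed at 0 in WT against 0.354 in the library labelled Eed -/-, the latter about 6 fragments, and Ankrd23 had an FPKM of 0.701 and 0.436. Wisp2 and Ankrd2 were listed at 0 in both. With a pseudocount of 0.1, 2 of these genes were past 2-fold, both of them listed at 0 in WT, where 11.4% of all genes were higher.

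Annotated loci overlap several of the genes. On the other strand, a lincRNA, Gm15270, overlaps the start of Ctgf, another, 2310014F06Rik, that of Tead1, and a pseudogene, Gm16016, lies within Wwtr1. RP23-349N15.1, a processed transcript, lies within Yap1 and Cd37 overlaps the last bases of Tead2, both on the other strand. On the same strand, a processed transcript also named Tead1 overlaps the end of Tead1, and strand would not separate its reads. The libraries were strand-specific, but the strand setting of the quantification is not given in the sources used here, so the values were not separated from reads of these loci.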
